A study of Peromyscus maniculatus with 6 samples.

Results

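The genes described here encode BiP, GRP94 and the proteins that work directly with them in the endoplasmic reticulum (ER). They were picked by symbol from a list of 10 genes, and 8 of the 10 (Hspa5, Hsp90b1, Hyou1, Dnajb9, Dnajb11, Dnajc3, Dnajc1 and Sdf2l1) are named among the 24281 genes of the deposited count table. Sil1 and Dnajc10 are not named there and were not analysed here. All 8 passed the filter on low counts, which left 13503 genes for testing. The RNA was that of primary ear fibroblasts from 3 deer mice (Peromyscus maniculatus) of the BW stock, 4 weeks old, animals BW35770, BW35772 and BW35773. Cells of each animal gave 1 control library and 1 library after 5 h of tunicamycin, following 24 h in culture at 300000 cells per well. The labels print the concentration as 5 mg/mL, a unit that may be a slip and could not be checked here. They do not say what the control wells received in place of the drug. Libraries held 37852385 to 49352126 counts.

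BiP (Hspa5) is the HSP70 of the ER lumen. It binds unfolded stretches of newly made proteins and releases them in a cycle of ATP hydrolysis. J-domain co-chaperones (Dnajb9, Dnajb11, Dnajc3 and Dnajc1) bring it clients and start the hydrolysis, and nucleotide exchange factors (Hyou1, and Sil1) reset it. GRP94 (Hsp90b1) is the ER HSP90 and acts on a narrower range of clients. Sdf2l1 binds the J-protein Dnajb11 and keeps clients soluble. BiP also restrains the stress sensors IRE1, PERK and ATF6 until unfolded proteins draw it away, and its own gene is a classic target of the unfolded protein response. Tunicamycin stops cells from attaching N-glycans to new ER proteins and is widely used to set off that response.

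The label "fibroblasts" was checked against markers. Of 10 fibroblast markers 9 are named in the table. Their summed level was 14980 to 20920 CPM (counts scaled to library size) in controls and 16100 to 21950 CPM with tunicamycin. Single markers differed between animals. Thy1 stood at 733.4 and 843.6 CPM in the libraries of BW35770, and at 61.5 to 117.8 CPM in those of the other animals. Col3a1 stood at 428.3 and 487.6 CPM in BW35770 and at 1036 to 1479 CPM in the others. Vim was alike in all libraries, at 7933 to 9742 CPM. The summed level of cartilage markers was also high, at 1789 to 7865 CPM in controls and 2084 to 9198 CPM with tunicamycin (5 of 5 markers named). Most of it was Col2a1 (724.4 to 6627 CPM over the libraries) and Acan (815.4 to 2237 CPM). Sox9 stood at 220.6 to 308.6 CPM and Comp at 16.2 to 112.7 CPM, and Matn1 at 0.0454 CPM or less. Col2a1 was lowest in BW35770, at 724.4 CPM in the control and 859 CPM with tunicamycin. Keratinocyte, endothelial, leukocyte, melanocyte and glial, and muscle markers summed to at most 171.2 CPM per list in any library. The leukocyte list gave this highest sum. Of its 4 named markers 3 stayed below 1 CPM, Cd3e being at 0 in every library, and Cd68 stood at 67.6 to 170.9 CPM. Of 23 markers tested in these 7 lists 0 were called between the groups by edgeR, DESeq2 or limma-voom without the block (animal as a term in the model). With it edgeR called 1 (Krt14, listed for keratinocytes, lower with tunicamycin) and DESeq2 also called 1, and 1 had an unadjusted edgeR p under 0.05. The part of cell make-up in the results below was not tested. In bulk RNA of this kind, a change in the number of cells of a type and a change in RNA per cell cannot be told apart. The treatment itself was visible in Ddit3, which encodes the stress factor CHOP and went from 22.1 ± 2.38 to 340.9 ± 95.5 CPM (SD, n = 3).

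Of the 8 chaperone genes 4 rose and 0 fell after tunicamycin, where 1.78% of all tested genes were called higher (edgeR quasi-likelihood test, Benjamini-Hochberg adjusted p under 0.05). At an unadjusted p under 0.05, 6 were higher and 0 lower. The share of all tested genes at that unadjusted threshold is not given here. Unadjusted counts, also those for the lists below, thus have no background to be read against. The 4 called after adjustment were Dnajb9, Hspa5, Hyou1 and Dnajc3. With the animal as a block, which compares each treated library with the control of the same animal, Hsp90b1 and Sdf2l1 were called higher too, making 6 of 8 against 3.07% of all tested genes. DESeq2 called the same 6, against 5.67% of the genes it tested without the block and 5.94% with it, and limma-voom called 4 against 1.61%. In 6 of 8 genes every treated library was above every control library, as in 12.3% of tested genes. The median log2 fold change was 0.78 over the 8 genes and -0.01 over all tested genes. Dnajb11 and Dnajc1 were called by none of these fits.

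**Figure D1:**
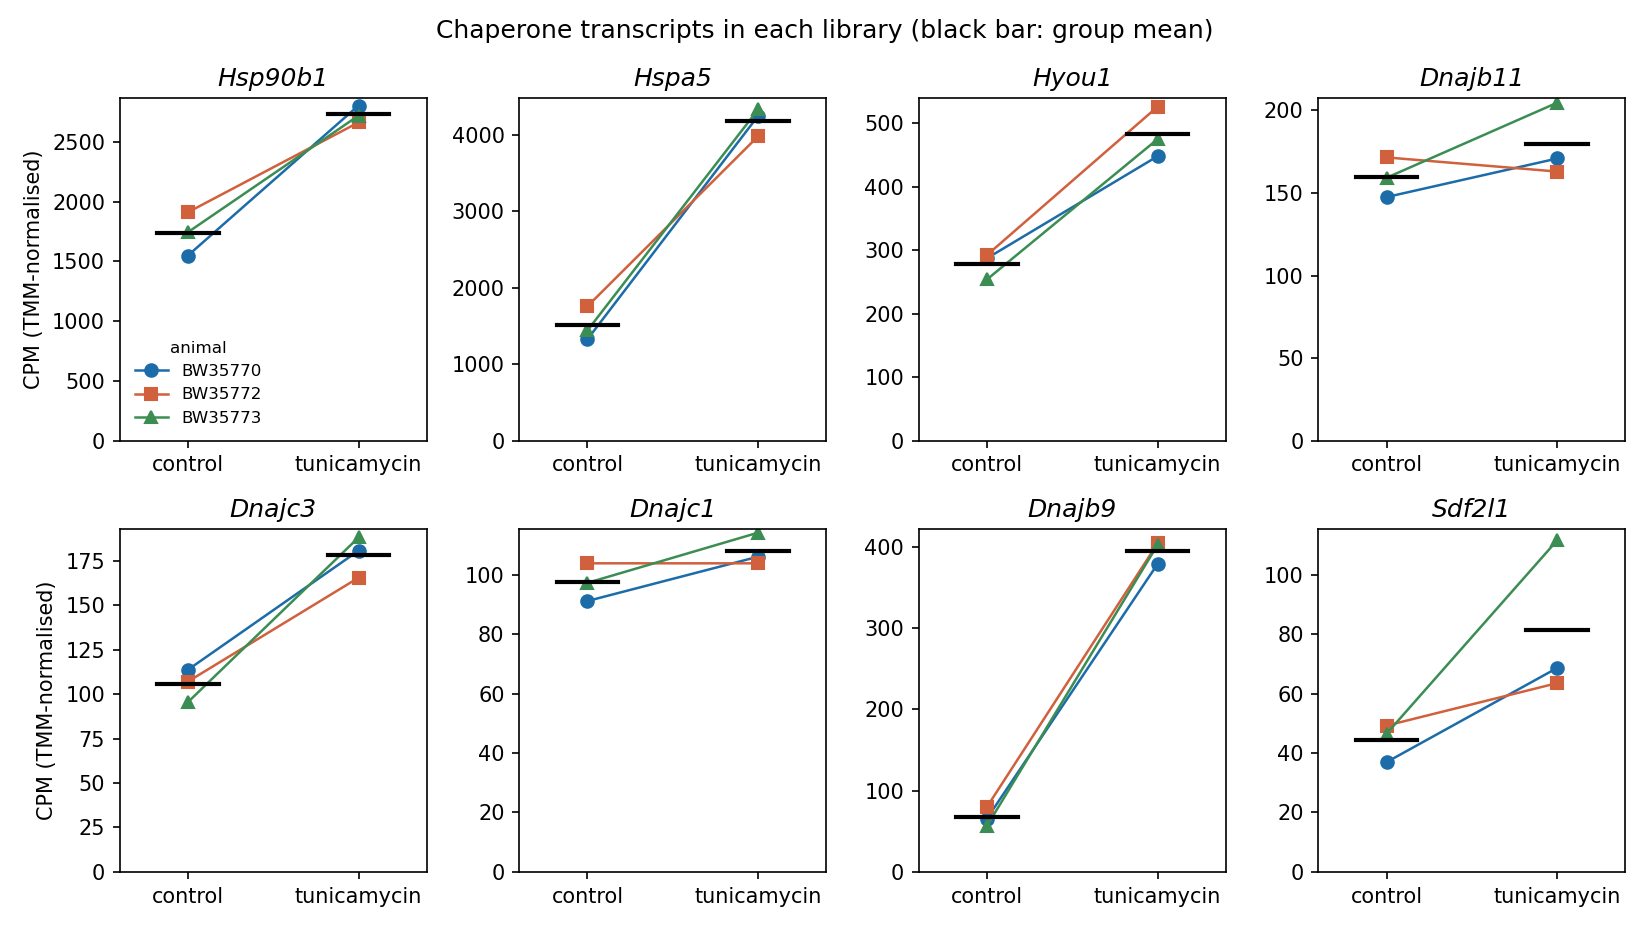
TMM-normalised CPM of the 8 genes in the 6 libraries, 1 panel per gene with its own axis from 0; lines join the control and tunicamycin libraries of 1 animal and black bars are group means. In 6 panels the treated libraries all lie above the controls, and in those of Dnajb11 and Dnajc1 the groups overlap.

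Hspa5, the gene of BiP, stood at 1327, 1759 and 1443 CPM in the controls of animals BW35770, BW35772 and BW35773. With tunicamycin it stood at 4250, 3983 and 4334 CPM in the same order. The groups lay far apart, and the animal with the highest control had the lowest treated value. Hspa5 rose 2.77-fold, by 1.47 ± 0.16 on the log2 scale (SE, edgeR adjusted p = 0.00512). The 3 animals showed folds of 3.20, 2.26 and 3.0. The coefficient of variation between animals was 14.8% in controls and 4.37% with treatment. Without the control of BW35773 the call was lost (at 1.44 log2 units, edgeR adjusted p = 0.0561), and likewise in the blocked fit without animal BW35770 (1.38, adjusted p = 0.0577). The table places Hspa5 (ENSPEMG00000021747) on the plus strand of scaffold KI615699.1, bases 1845162 to 1849571, in 9 exon intervals.

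Hsp90b1, the gene of GRP94, stood at 1548, 1910 and 1743 CPM in the controls. The treated libraries held 2803, 2662 and 2719 CPM. All treated values were above all controls and they lay closer together, with a coefficient of variation of 2.6% against 10.4%. The log2 fold change of 0.65 ± 0.14 did not pass the main test (edgeR adjusted p = 0.062), and passed it with the animal as a block (0.66 ± 0.13, adjusted p = 0.0324). DESeq2 also called it (adjusted p = 4.75e-05). The blocked call was lost without animal BW35770 (adjusted p = 0.498). Hsp90b1 (ENSPEMG00000022761) lies on the plus strand of KI615446.1, bases 5049617 to 5063473, in 19 exon intervals.

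Hyou1 encodes GRP170, a large HSP70 relative that drives nucleotide exchange on BiP. It stood at 287.2, 292.3 and 253.9 CPM in the controls. With tunicamycin it stood at 447.9, 526.0 and 474.8 CPM. The lowest treated library was thus well above the highest control. It rose by 0.80 ± 0.12 on the log2 scale (edgeR adjusted p = 0.0211), or 1.74-fold. Leaving out any 1 of the controls ended the call (edgeR adjusted p = 0.0858 without that of BW35770, 0.108 for BW35772 and 0.139 for BW35773). So did leaving out the treated library of BW35770 (0.0564) and, in the blocked fit, animal BW35770 (0.137). Its log2 fold change stayed between 0.74 and 0.87 in the fits without 1 library. Hyou1 (ENSPEMG00000009007) lies on the plus strand of KI615933.1, bases 603363 to 618082, in 26 exon intervals.

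Sdf2l1 stood at 36.9, 49.2 and 46.5 CPM in the controls. It stood at 68.6, 63.5 and 111.6 CPM with tunicamycin. The treated library of BW35773 was far above the other two, and the coefficient of variation with treatment, 32.5%, was the highest of the 8 genes. A log2 fold change of 0.88 ± 0.23 was not called (edgeR adjusted p = 0.117, 95% interval 0.33 to 1.42). Without the treated library of BW35773 it was 0.60 (adjusted p = 0.0895). The blocked fit called it (0.84 ± 0.18, adjusted p = 0.0411), as did DESeq2 (adjusted p = 0.0104), and the blocked call was lost without animal BW35770 (adjusted p = 0.309). Sdf2l1 (ENSPEMG00000017559) lies on the minus strand of KI615955.1, bases 1141092 to 1143554, in 3 exon intervals.

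The 4 J-domain genes ran from the largest change in the set to the smallest. Dnajb9 (ERdj4), which takes misfolded proteins towards degradation and helps BiP bind IRE1, stood at 65.6, 80.0 and 56.7 CPM in the controls. Treated libraries held 378.6, 403.9 and 402.1 CPM. The lowest treated value was thus more than 4 times the highest control. It rose by 2.55 ± 0.15 on the log2 scale (edgeR adjusted p = 0.000488), 5.85-fold, and ranked 21 of 13503 tested genes by log2 fold change. The call held in all 18 other fits tried, with log2 fold changes from 2.44 to 2.73. Dnajb9 (ENSPEMG00000010513) lies on the minus strand of KI615736.1, bases 3214201 to 3218325, in 2 exon intervals.

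Dnajc3 (P58IPK), a J-protein also described as an inhibitor of PERK, stood at 113.8, 107.1 and 95.6 CPM in the controls. It stood at 180.8, 165.6 and 188.2 CPM with tunicamycin. The groups did not overlap, and it rose by 0.76 ± 0.12 on the log2 scale (edgeR adjusted p = 0.0211), or 1.69-fold. This call too ended without any 1 of the controls (edgeR adjusted p = 0.0623 for BW35770, 0.102 for BW35772 and 0.132 for BW35773), without the treated library of BW35770 (0.0768), and in the blocked fit without animal BW35770 (0.176). Dnajc3 (ENSPEMG00000016620) lies on the plus strand of KI615426.1, bases 1011916 to 1037913, in 12 exon intervals.

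Dnajb11 (ERdj3), a soluble J-protein that binds clients itself and hands them to BiP, stood at 147.5, 171.6 and 159.2 CPM in the controls. Treated libraries held 170.9, 163.0 and 204.7 CPM. The groups overlapped, and in BW35772 the treated library was the lower one. Dnajb11 thus had a log2 fold change of 0.17 ± 0.13 (95% interval -0.13 to 0.47, edgeR adjusted p = 0.624). Dnajc1 (ERdj1), a membrane J-protein that contacts ribosomes, stood at 91.2, 103.8 and 97.3 CPM in the controls. Treated libraries held 106.1, 103.8 and 114.1 CPM, and the groups again overlapped. Dnajc1 had a value of 0.15 ± 0.11 (95% interval -0.10 to 0.40, edgeR adjusted p = 0.6). A rise as large as that of Dnajc3 thus lay outside both intervals. Dnajb11 (ENSPEMG00000011031) lies on the plus strand of KI615562.1, bases 874459 to 890637, in 10 exon intervals. Dnajc1 (ENSPEMG00000008697) lies on the minus strand of KI615425.1, bases 432855 to 631804, in 12 exon intervals. Its span overlaps those of a 5S_rRNA gene and 1 unnamed gene, and none of the other 7 spans overlaps a gene of the table.

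**Figure D2:**
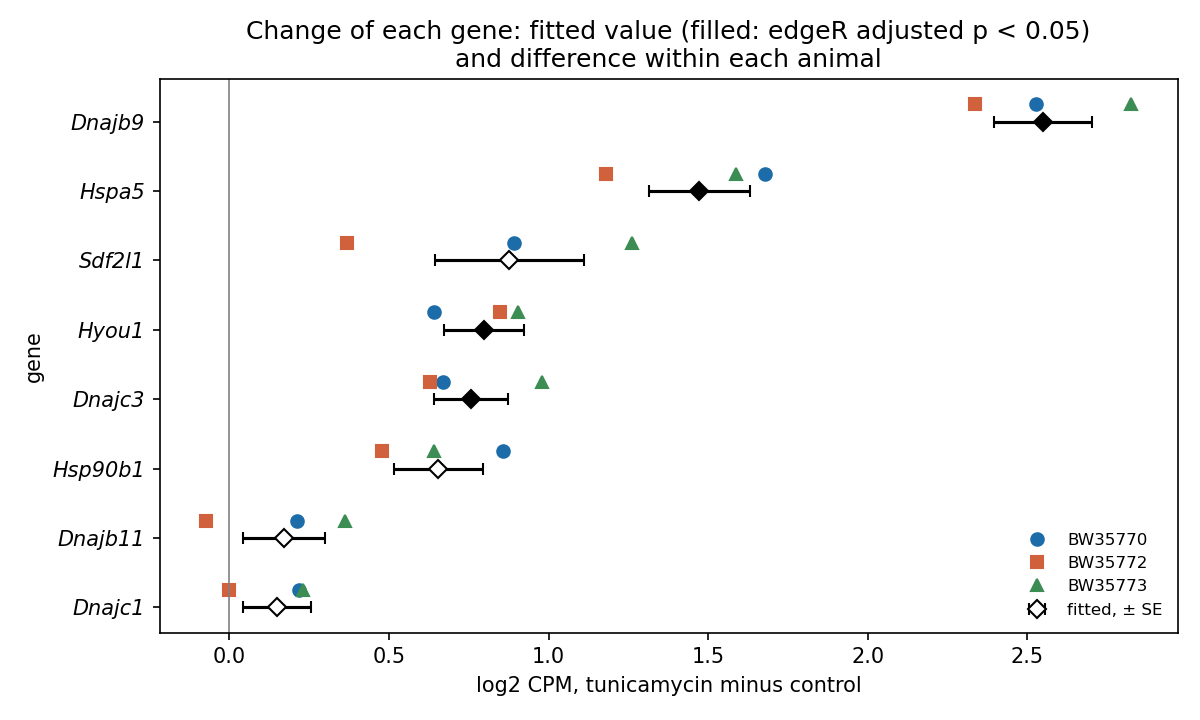
Log2 CPM with tunicamycin minus control for the 8 genes, ordered by size; diamonds are fitted log2 fold changes with their SE (filled where the edgeR adjusted p is under 0.05) and coloured points are the differences within each of the 3 animals. Dnajb9 and Hspa5 lie right of all others in each animal, and Dnajb11 and Dnajc1 lie near 0.

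The order of the changes was compared between genes within each animal. Dnajb9 ranked first and Hspa5 second among the 8 genes in all 3 animals. Hspa5 changed by 0.82 ± 0.12 more than Hsp90b1 (log2 units, mean ± SD of the 3 within-animal values) and Dnajb9 by 1.08 ± 0.21 more than Hspa5. Sdf2l1, Hyou1, Dnajc3 and Hsp90b1 changed places from animal to animal. Of the 28 pairs of genes 21 kept 1 order in all 3 animals. The 7 that did not were the 6 pairs among those 4 genes and the pair of Dnajb11 with Dnajc1. Exact two-sided permutation tests of the 28 differences over the 6 libraries gave p = 0.1 for these 21 pairs, the smallest p that 3 against 3 libraries allow, and 0.133 after Benjamini-Hochberg adjustment over the 28. These tests shuffled all 6 libraries and did not keep the libraries of an animal together, unlike the within-animal values above.

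The animals themselves differed in where they started. Animal BW35772 had the highest control level in 7 of the 8 genes, Dnajc3 being the exception, whereas it was highest in 28.9% of all tested genes. It also showed the smallest within-animal difference in 7 of the 8, Hyou1 being the exception, against 38.3% of all tested genes. The difference is treated minus control, so a high control by itself makes a small difference likelier. The counts of highest controls and of smallest differences are thus not separate observations. Animal BW35773 showed the largest difference in 6 of 8 (40.8% of all tested genes), and BW35770 in Hspa5 and Hsp90b1 (25.5% of all tested genes). Genes measured in the same libraries are not independent, so these counts describe 3 animals and carry no test. Ddit3 likewise differed least in BW35772, by 3.46 log2 units against 3.76 in BW35770 and 4.53 in BW35773. Atf4, the other gene set as a check on the treatment, did not. It differed least in BW35770, by 2.31 log2 units against 2.46 in BW35772 and 2.65 in BW35773.

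Levels were next compared between genes as CPM per kilobase of annotated exon, since longer transcripts collect more reads. On this scale BiP and GRP94 formed most of the set. In controls Hspa5 held 582.7 ± 86.2 and Hsp90b1 603.8 ± 63.1 CPM per kb (SD, n = 3), and both stood at about the 98.8th percentile of tested genes. These neighbours did not differ beyond their spread. Dnajb11 followed at 83.7 ± 6.31, Dnajc3 at 71.8 ± 6.27 and Hyou1 at 64.9 ± 4.87 CPM per kb. Sdf2l1 at 40.1 ± 5.86, Dnajb9 at 23.1 ± 4.03 and Dnajc1 at 15.5 ± 1.01 CPM per kb came last. Of these, Dnajb11 lay above Dnajc3 in every control library, but by little in BW35770 (77.4 CPM per kb for both to 3 digits), and Dnajc3 above Hyou1 in each. With tunicamycin Hspa5 reached 1617 ± 70.6 and Hsp90b1 949.9 ± 24.7 CPM per kb. Dnajb9, at 135.3 ± 4.83, moved from below Sdf2l1 to the rank after Hsp90b1, though far below Hsp90b1 in level. It stood above Dnajc3 at 121.2 ± 7.85 and Hyou1 at 112.8 ± 9.26 CPM per kb. The lengths come from gene models that may lack untranslated ends, so an order between genes close in level rests on the annotation.

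The 8 genes together took 0.353 to 0.431% of all counts in controls and 0.842 to 0.857% with tunicamycin. Their summed level went from 1486 ± 163 to 3121 ± 114 CPM per kb. Of the added level, 63.2% was Hspa5, 21.2% Hsp90b1 and 6.86% Dnajb9, with the other 5 genes making up the rest. The share of Hspa5 in the set was 38.1, 40.8 and 38.4% in the controls of BW35770, BW35772 and BW35773. With treatment it was 52.2, 51.3 and 51.9%. The groups did not overlap, and the mean difference was 12.7 percentage points (exact two-sided permutation p = 0.1, the smallest possible here). The share of Hsp90b1 went from 40.7 ± 1.07 to 30.5 ± 0.94% even though its CPM was higher in every treated library.

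**Figure D3:**
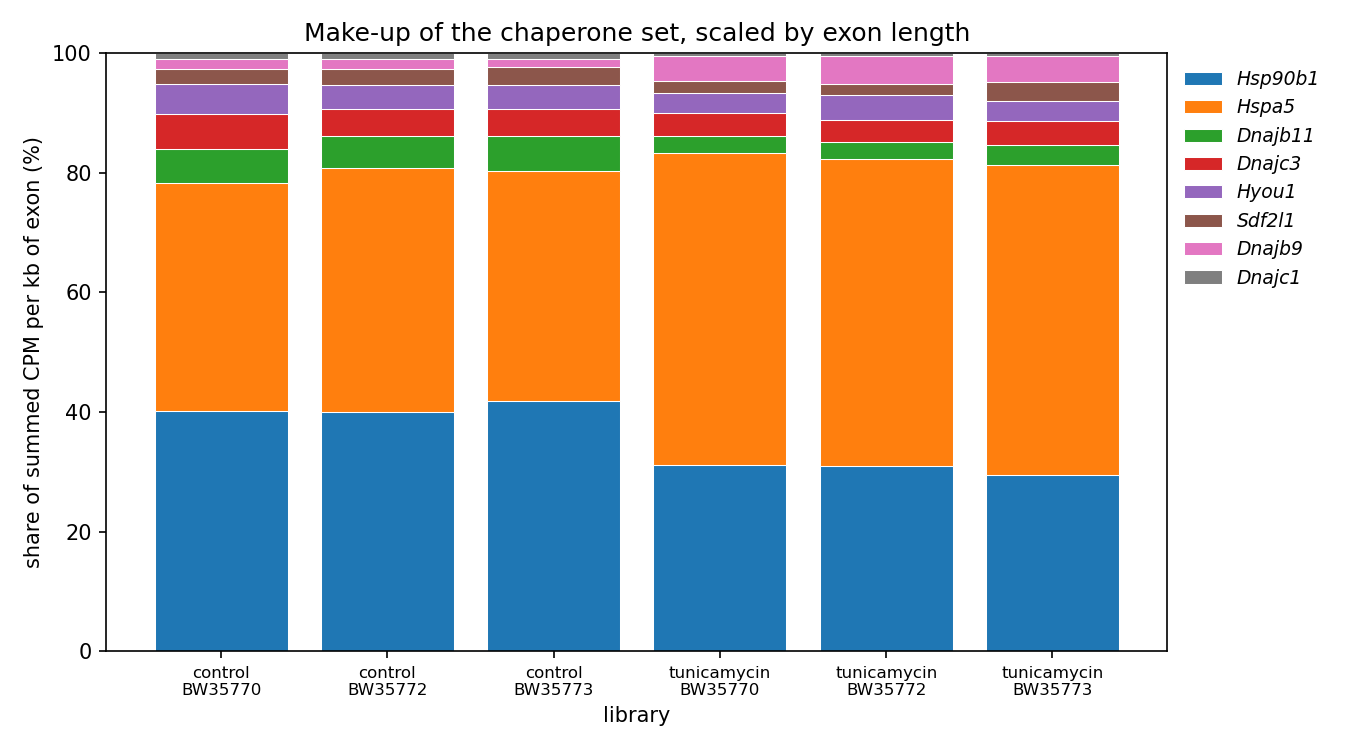
Share of each of the 8 genes in their summed CPM per kb of exon, as a stacked bar for each of the 6 libraries. Hspa5 takes 38.1 to 40.8% in controls and 51.3 to 52.2% with tunicamycin, and the band of Dnajb9 widens from 1.34 to 1.67% to 4.13 to 4.62%.

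The ratio of BiP to GRP94 transcripts, which does not depend on how libraries are scaled to each other, was 0.95, 1.02 and 0.917 in controls. It was 1.68, 1.66 and 1.77 with tunicamycin. BiP and GRP94 messages were thus near parity at rest, and BiP was in excess in each treated culture. The mean log2 difference was 0.82, with within-animal values of 0.82, 0.70 and 0.95 (exact two-sided permutation p = 0.1, the smallest possible).

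Among the 4 J-protein genes the make-up also shifted. Dnajb9 held 11.7, 13.2 and 10.6% of their summed CPM per kb in controls. It held 36.1, 39.2 and 35.2% with tunicamycin, a mean difference of 25 percentage points (exact two-sided permutation p = 0.1, the smallest possible). Dnajb11 held the largest mean share of these messages in controls at 43.1 ± 2.61%, and stood at 25.5 ± 1.69% with treatment. In the control of BW35770 it was level with Dnajc3 (40.4 and 40.3%), and their order rests on the annotated lengths. Dnajc3 went from 37.0 ± 2.90 to 32.9 ± 1.18%. BiP message per unit of these J-protein messages was 2.99 ± 0.31 in controls and 4.40 ± 0.15 with tunicamycin (exact two-sided permutation p = 0.1, the smallest possible).

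**Figure D4:**
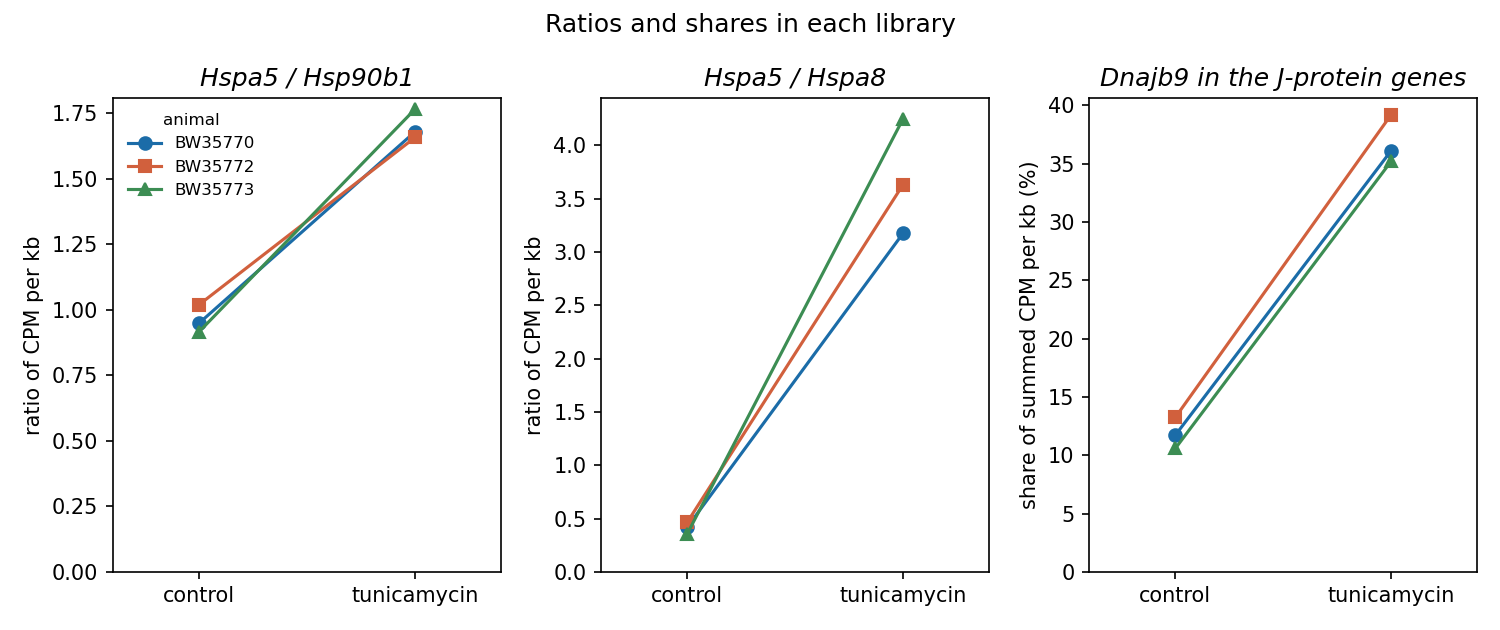
Hspa5 over Hsp90b1 and Hspa5 over Hspa8 (ratios of CPM per kb of exon) and the share of Dnajb9 in the summed CPM per kb of 4 J-protein genes, in each library, with lines joining libraries of 1 animal. All 3 panels show separate groups; Hspa5 over Hspa8 goes from 0.358 to 0.467 in controls to 3.18 to 4.25 with tunicamycin.

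Other J-domain proteins of the ER or its membrane were compared with the 4 above. Sec63, which recruits BiP to the translocon, had 112.4 ± 6.14 CPM in controls and 123.4 ± 12.4 CPM after treatment, a difference of 0.13 ± 0.12 on the log2 scale (edgeR adjusted p = 0.686). Dnajb12, Dnajc14, Dnajc16, Dnajc18 and Dnajc25 had log2 fold changes from -0.32 (Dnajc14) to 0.27 (Dnajb12). Of these 6 genes 0 were called by edgeR or DESeq2, each with or without the block, or by limma-voom, and 1 (Dnajc14) had an unadjusted edgeR p under 0.05. These genes were set apart from the wider list below after their values were seen.

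In a list of 24 tested partners and modifiers of BiP and GRP94, 6 rose and 0 fell, where 1.78% of all tested genes were called higher. With the block 7 rose and 0 fell, against 3.07% called higher of all tested. At an unadjusted p under 0.05, 8 were higher and 2 lower (share of all tested genes not given). The median log2 fold change was 0.09. The blocked edgeR fit without animal BW35773 called 1 partner lower, where it called 826 of 13634 genes lower. Ficd, which attaches AMP to BiP and removes it, went from 8.68 ± 1.90 to 38.4 ± 8.33 CPM per kb. Its rise was 2.14 ± 0.23 on the log2 scale (edgeR adjusted p = 0.00494), and its call held in every fit tried. Of the 3 stress sensors that BiP binds, 2 rose. Ern1, which encodes IRE1, rose by 1.68 ± 0.19 (edgeR adjusted p = 0.00604) and Eif2ak3, which encodes PERK, by 1.54 ± 0.21 (edgeR adjusted p = 0.0131). Atf6, the gene of the third sensor, had a log2 fold change of 0.84 ± 0.18 that edgeR did not call (adjusted p = 0.0624). It was called by edgeR with the block (0.0466), by DESeq2 (0.00118) and by edgeR without the treated library of BW35773 (0.0398). The blocked call was lost without animal BW35770 (adjusted p = 0.302) or BW35772 (0.0635). Manf, which binds BiP and slows its nucleotide exchange, rose by 1.79 ± 0.23 (edgeR adjusted p = 0.0117). Creld2 and Sel1l, named after their values were seen, made up the 6, at 1.01 ± 0.19 and 0.94 ± 0.19. The edgeR calls for Manf and Eif2ak3 were lost when any 1 of the 3 controls was left out, and that for Ern1 without either the BW35772 or the BW35773 control (adjusted p up to 0.0887, 0.0863 and 0.055). Those for Creld2 and Sel1l were lost in 5 and 6 of the 6 fits without 1 library (adjusted p up to 0.187 and 0.198), Creld2 being called only without the treated library of BW35773. In the blocked fit without animal BW35770 the calls for Eif2ak3, Creld2 and Sel1l were lost as well (adjusted p = 0.0706, 0.122 and 0.164), and Sel1l was not called with upper-quartile scaling (0.0556).

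In 19 tested lectin chaperones, disulfide isomerases and prolyl isomerases of the ER, 1 gene rose and 0 fell in edgeR, with and without the block (1.78% of all tested genes were called higher, and 3.07% with the block). DESeq2 called 1 higher, and 2 with the block (5.67% of all genes it tested were called higher, and 5.94% with the block). The gene that rose was Txndc11, a membrane protein with thioredoxin domains, which rose by 0.91 ± 0.12 on the log2 scale (edgeR adjusted p = 0.0111). Removing the control of BW35770, BW35772 or BW35773 ended its call (adjusted p = 0.0562, 0.0521 and 0.093), as did removing animal BW35770 from the blocked fit (0.182). Pdia4 and Pdia6, isomerases that bind BiP, had log2 fold changes of 0.46 ± 0.15 and 0.32 ± 0.14 (edgeR adjusted p = 0.181 and 0.333). Pdia4 was the further gene called by DESeq2 with the block (adjusted p = 0.00864, and 0.0547 without it). Fkbp7, a prolyl isomerase, had -0.29 ± 0.16. The blocked edgeR fit without animal BW35773 called Fkbp7 lower (adjusted p = 0.0418), where it called 826 of 13634 genes lower. The median of this list was 0.02. At an unadjusted p under 0.05 there were 2 higher and 0 lower (share of all tested genes not given).

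In the cytosolic list the changes called by edgeR were falls. Of its 27 genes 7 are not named in the table and were not analysed here, among them the stress-inducible HSP70 genes Hspa1a and Hspa1b and the HSP90 genes Hsp90aa1 and Hsp90ab1. Of 20 tested cytosolic HSP70 and HSP90 chaperones and co-chaperones 5 fell and 0 rose, where 0.792% of all tested genes were called lower. With the block 7 fell (2.4% of all tested genes did). DESeq2 without the block called 8 lower (3.36% of all it tested) and 1, Dnajb5, higher (5.67%). With the block DESeq2 called 9 lower (5.21% of all it tested) and 0 higher, Dnajb5 then being at an adjusted p of 0.0506. Before adjustment 9 were lower and 1 higher at an edgeR p under 0.05 (share of all tested genes not given). The list had a median of -0.21 log2 units. Hspa8, which encodes HSC70, the constant cytosolic HSP70, stood at 1219, 1455 and 1555 CPM per kb in controls. It stood at 516.4, 423.2 and 393.6 CPM per kb with tunicamycin, and fell by 1.67 ± 0.17 on the log2 scale (edgeR adjusted p = 0.0045). Its J-protein partner Dnajb1 changed by -1.33 ± 0.10 (edgeR adjusted p = 0.00118), and both calls held in every fit tried. Stip1, Dnaja1 and Hsph1 (named after its values were seen), which also serve HSC70 or HSP90, changed by -0.67 ± 0.12, -0.70 ± 0.13 and -0.85 ± 0.16. The calls for these 3 were lost in 5, 6 and 5 of the 6 fits without 1 library. They were kept only without the treated library of BW35773 (Stip1) or BW35770 (Hsph1). In the blocked fit without animal BW35770 all 3 were lost (adjusted p = 0.213, 0.182 and 0.0932), and Hsph1 was not called when libraries were scaled by their totals (0.054).

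HSC70 message per kilobase exceeded BiP message in every control library, and BiP message exceeded HSC70 message in every treated one. The ratio of BiP to HSC70 was 0.420, 0.467 and 0.358 in controls and 3.18, 3.63 and 4.25 with tunicamycin. The mean log2 difference was 3.15, with 2.92, 2.96 and 3.57 within the animals (exact two-sided permutation p = 0.1, the smallest possible). Hspa8 has near-identical processed copies in rodent genomes, and how the authors treated reads that map to several places is not known here, so its counts may miss or include such reads.

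Mitochondrial chaperones were thinly covered, with 6 of 12 listed genes named in the table. Of these 0 were called by edgeR with or without the block, by DESeq2 without it or by limma-voom, and 1 (Dnaja3) had an unadjusted edgeR p under 0.05. DESeq2 with the block called Dnaja3 higher (adjusted p = 0.0237), where it called 5.94% of all genes it tested higher. The blocked edgeR fit without animal BW35773 called Dnajc15 lower (adjusted p = 0.0382), where it called 826 of 13634 genes lower. Trap1, the mitochondrial HSP90, had -0.04 ± 0.12 on the log2 scale (edgeR adjusted p = 0.935), with a sign that changed between settings. Dnaja3, a mitochondrial J-protein, had 0.50 ± 0.17 (edgeR adjusted p = 0.2). Hscb, Dnajc15 and Grpel1 had -0.34, -0.32 and -0.08. The mitochondrial HSP70 gene Hspa9 is not named in the table and was not analysed here.

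**Figure D5:**
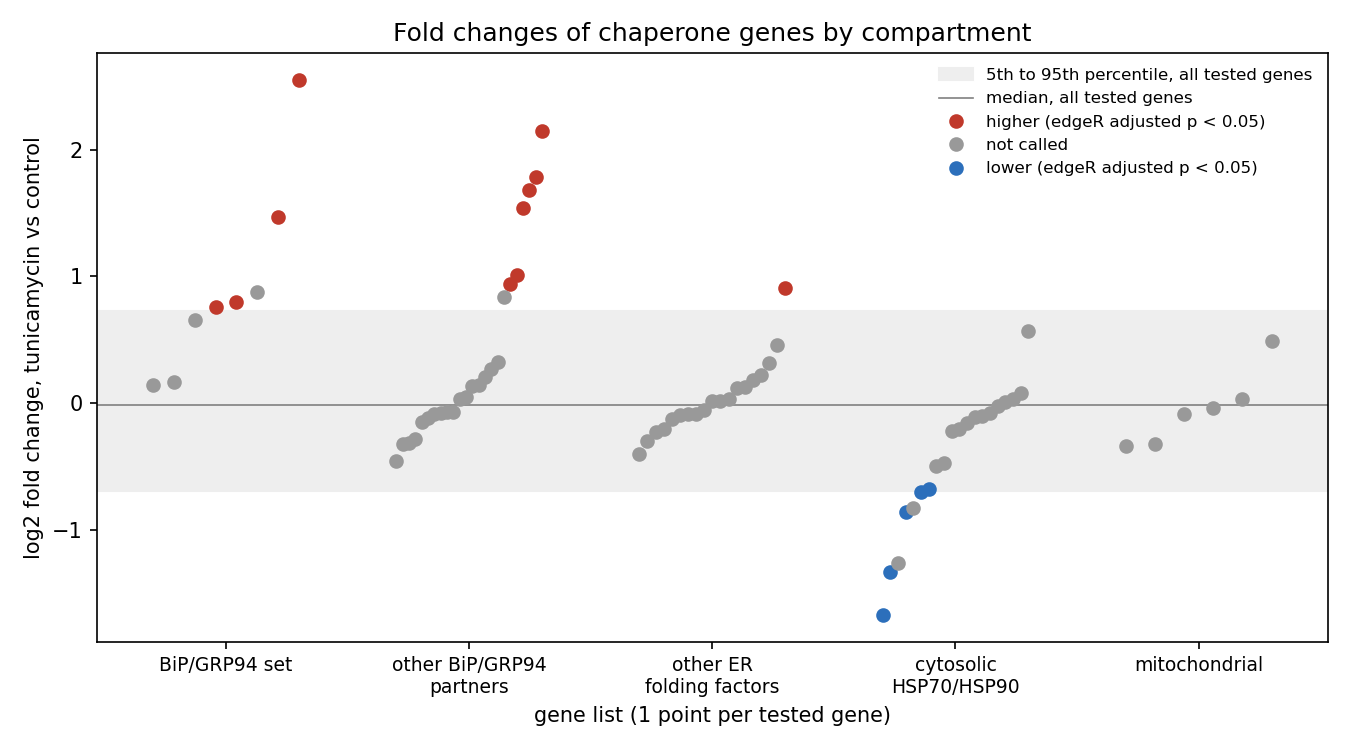
Log2 fold change (tunicamycin against control) of each tested gene in the 8-gene set and in 4 further lists, 1 point per gene, red or blue where called by edgeR and grey where not; the shaded band holds the 5th to 95th percentile of all tested genes. Called rises lie in the 3 ER lists and called falls in the cytosolic list.

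Genes whose pattern over the 6 libraries was closest to that of a member were found by Euclidean distance between mean-centred log2 CPM values, among genes that have a name and average at least 1 log2 CPM. Closest to Hspa5 were Fbxl12, Asns, Lpxn, Pck2 and Rassf1, at distances of 0.23 to 0.33 log2 units. Asns, asparagine synthetase, had a log2 fold change of 1.41 and Pck2, a mitochondrial gluconeogenic enzyme, also 1.41. Closest to Dnajb9 was Ppp1r15a (GADD34), the stress-induced phosphatase subunit that reverses eIF2alpha phosphorylation, at 0.21. Akna, Sesn2, Egr1 and Atf4 followed at 0.53 to 0.57. Closest to Hsp90b1 were Zfp672, Chd2, Zfp354a, Atxn2l and Taco1, at 0.13 to 0.19. No other of the 8 genes was among the 5 closest to any of these 3. All of these libraries share the treatment contrast, and the distances are descriptions without a test.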

How the data were processed

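The authors deposited raw read counts (whole numbers) for each gene in each of the 6 libraries (3 control, 3 tunicamycin). Reads were aligned with STAR 2.6.1, handled with SAMtools 1.6 and counted with featureCounts, per the submitters' processing notes. Exon length was also taken from the deposited table. Build and annotation release are not given in the sources, and coordinates are those of the table. Counting is strand-specific by the table's own title.

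Counts were fitted with edgeR 4.0.16 (filterByExpr, minimum count 10 and minimum total 15; TMM scaling; quasi-likelihood test, two-sided; Benjamini-Hochberg over 13503 genes, threshold 0.05). A gene is said to have risen or fallen only if it passed. SE is the log2 fold change over the square root of F, and intervals are at the 95% level. CPM is TMM-normalised, except for marker sums, which use library totals. Within-animal differences use log2 CPM with a prior count of 2. Titles name the animal. Deviations from group means correlated at 0.66, 0.41 and 0.22 within the pairs, so an edgeR fit blocked on animal was run as well. No library was a copy of another (chi-square per degree of freedom at least 34.0). Replicates are animals. Counting error is small at these depths.

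Single ratios and shares were tested by exact permutation over all libraries, which does not keep the pairs of an animal. Their p-values are thus unpaired. The alternatives tried were DESeq2 1.42.0, limma-voom 3.58.1, other scalings and filters, the block and leaving out libraries or animals. The edgeR fit without the block was tested on simulated counts that held no animal effect. The members, lists and the rule for named genes (all members, the 4 smallest p-values of each further list, fixed counterparts in other compartments, Ddit3 and Atf4, and the 5 closest genes to Hspa5, Hsp90b1 and Dnajb9) were chosen with earlier results of these data known. No sequences were used here.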

Additional observations from a re-analysis of the deposited data

How the results depend on the processing

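With 3 animals the count of chaperone genes called higher rests on few libraries. It was 4 in the edgeR fit without the block and in 5 other fits with all libraries (other scalings or filters, limma-voom), 5 with library totals in place of TMM, and 6 with the replicate block or DESeq2. Leaving out single libraries or, with the block, whole animals gave 1 to 6, the lowest being 1 without the control of BW35773 and 1 without animal BW35770. It was 2 without the control of BW35770 or BW35772 or the treated library of BW35770. Calls over all tested genes moved as well. Called higher were 241 of 13503 genes in the edgeR fit without the block. The fits that gave 1 called 46 of 13791 and 74 of 13526 genes higher, in the order named. Those that gave 2 called 79 of 13703, 51 of 13747 and 97 of 13660. The blocked fits without animal BW35772 or BW35773, which gave 6, called 497 of 13600 and 806 of 13634. The count called lower was 0 in all 18 other fits, and no member changed sign in any fit. In edgeR, pairing by the replicate block changed the calls of Hsp90b1, Sdf2l1 and Atf6, besides Bag3 and Hspa2, which fell with it, and no other call among the members and the 4 further lists. In DESeq2 it added calls for Pdia4, Dnaja3 and Dnaja4 (adjusted p = 0.0442, lower) and ended that of Dnajb5. The difference in the share of Dnajb9 among J-protein messages was 30.3 percentage points when counts were not divided by length, because its exons are longer than those of Dnajb11 and Dnajc3. The share of Hspa5 in the set and the ratios of BiP to GRP94 and to HSC70 moved by less than the spread between animals. For the log2 ratios, dropping the division by length cannot change the difference between groups, and neither can averaging within animals. Only leaving out libraries could move them. The other ratios and shares were not recomputed. Some fit changed the sign of 7 of 24 partners, 10 of 19 other ER genes, 8 of 20 cytosolic and 3 of 6 mitochondrial genes, of which edgeR had called 0. Dnajc16, Dnajc18, Dnajc25, Cnpy2, Cnpy3, Trap1 and Grpel1 are among them. The log2 fold change of Trap1 was 0.020 with library totals only. Across fits that left out a library or an animal it lay between -0.067 and 0.046, and that of Grpel1 between -0.26 and 0.088. The cause was not tested. Fits without 1 library have no block, so differences between animals count as error in them. Depth does not limit the members, whose smallest count in a library was 1563.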

Other observations

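Several ER proteins that keep BiP and GRP94 in place or assist GRP94 showed differences that edgeR, with or without the block, did not call. The KDEL receptors, which return ER residents that escape to the Golgi, had log2 fold changes of -0.15 (Kdelr1), 0.15 (Kdelr2) and -0.31 (Kdelr3), none of them called by edgeR. The canopy proteins, of which Cnpy3 is a GRP94 co-chaperone, had -0.07 (Cnpy2), -0.08 (Cnpy3) and -0.45 (Cnpy4), also not called. For Cnpy4 every treated library was below every control, as in 1348 of 13503 tested genes, and the unadjusted edgeR p was 0.0291. Sdf2, the close relative of Sdf2l1, had -0.28 ± 0.17 (edgeR adjusted p = 0.52), and its groups overlapped. Hspa13, a further HSP70 relative of the ER, went from 71.2 to 89.1 CPM (edgeR adjusted p = 0.296). Every treated library was above every control, as in 12.3% of tested genes. Manf and Sdf2l1 were alike in their treated libraries: both were highest in BW35773 (893.5 CPM per kb for Manf, against 594.1 in BW35770 and 491.2 in BW35772). Creld2 was highest there too, at 173.1 CPM per kb in BW35773 against 112.0 in BW35770 and 123.8 in BW35772. These genes were named after their values were seen, and the differences between animals were not tested.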
